A study of Homo sapiens with 6 samples.

Results

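The genes described here are 10 human genes that release calcium from the endoplasmic reticulum (ER) store, pump it back, sense its level and let calcium in from outside when the store is empty. They were chosen by symbol, and each of the 10 matched 1 Ensembl identifier among the 61496 features of the deposited tables. The cells were U251, an established human glioma line, and the sequencing covered 3 libraries of untreated control cells and 3 libraries of cells exposed to sevoflurane (Sev) gas for 2 h. Sev is a volatile anesthetic, and the study asked which transcripts it changes in glioma cells. The deposited protocol lists concentrations of 1.7%, of 3.4% and of 5.1% without assigning one to a library, and the study describes the sequenced contrast as the highest of these. Both groups were grown in the same medium with serum, no gene was altered in either, and a cell line in culture holds none of the other cells of a tumor.

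The ER is the main calcium store of most cells. Inositol trisphosphate (IP3) receptors and ryanodine receptors are the channels through which stored calcium leaves, and the SERCA pumps return it from the cytosol at the cost of ATP. STIM proteins are ER membrane sensors that, when the store empties, cluster beneath the plasma membrane and open the ORAI channels, a route called store-operated calcium entry. In astroglial cells IP3 receptors carry most of the calcium signals, while ryanodine receptors are best known from muscle and neurons.

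The IP3 receptors were ITPR1 (ENSG00000150995, chr3:4493345-4847840, plus strand), ITPR2 (ENSG00000123104, chr12:26336515-26833198, minus strand) and ITPR3 (ENSG00000096433, chr6:33620365-33696574, plus strand). The ryanodine receptors were RYR2 (ENSG00000198626, chr1:237042205-237833988, plus strand) and RYR3 (ENSG00000198838, chr15:33310945-33866121, plus strand). The SERCA pumps were ATP2A2 (ENSG00000174437, chr12:110280756-110351093, plus strand) and ATP2A3 (ENSG00000074370, chr17:3923870-3964464, minus strand). The store entry genes were STIM1 (ENSG00000167323, chr11:3854527-4093210, plus strand), STIM2 (ENSG00000109689, chr4:26857678-27025381, plus strand) and ORAI1 (ENSG00000276045, chr12:121626550-121642677, plus strand). All 10 are protein-coding genes, and these spans are those of GENCODE 29 on GRCh38.

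The promoters of ITPR1 and RYR3 are shown because these were the members that kept their call, in opposite directions, under all alternative fits tried. Both stretches come from RefSeq's promoter windows on GRCh38.p14, run 5′ to 3′ on the gene's strand, and end at the base before the GENCODE start of the gene. Capitals mark the letters TATAA, and no other letters are capitals. The ITPR1 stretch is chr3:4493098-4493344, 247 bases with 65.2% G and C, and the RYR3 stretch is chr15:33310717-33310944, 228 bases with 67.1% G and C.
ITPR1: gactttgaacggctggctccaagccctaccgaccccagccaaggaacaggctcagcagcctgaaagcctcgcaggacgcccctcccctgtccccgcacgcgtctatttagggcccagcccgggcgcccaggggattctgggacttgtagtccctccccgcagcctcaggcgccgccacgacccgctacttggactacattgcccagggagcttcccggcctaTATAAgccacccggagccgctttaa
RYR3: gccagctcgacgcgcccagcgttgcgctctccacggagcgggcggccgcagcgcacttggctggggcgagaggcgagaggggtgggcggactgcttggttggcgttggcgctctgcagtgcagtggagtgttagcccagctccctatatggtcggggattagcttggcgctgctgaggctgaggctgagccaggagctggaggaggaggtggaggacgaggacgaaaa

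RefSeq windows, 250 bases before to 50 after a start, were given for 7 of the 10 members, 11 windows in all, and ITPR2, ATP2A3 and ORAI1 had no entry. The letters TATAA on the gene's strand, a search added after the data were seen, were in 1 of the 11 member windows, that of ITPR1 shown here, against 14.8% of all 35116 windows. The ER stress element (CCAAT, 9 bases, CCACG), the unfolded protein response element TGACGTGG and the cyclic AMP response element TGACGTCA were searched on both strands. Each was in 0 of the 11 member windows, against 0.0769%, 0.729% and 1.85% of all windows. These matches describe letters in the windows only, and the cyclic AMP element reads the same on both strands.

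Library totals lay between 38624292 and 46318311 counts, so that precision was limited by the 3 libraries a group except for genes with few counts. Of the features, 27514 passed the filter on low counts, 0.251 CPM in at least 3 libraries, and were tested. All 10 members were among them, each over this level in all 6 libraries. Normalized counts are CPM, counts scaled to a common library size with TMM factors, given as mean ± SD of the 3 libraries of a group. Called higher or lower means a Benjamini-Hochberg adjusted p under 0.05 over all tested features in edgeR's quasi-likelihood test, and fold changes are log2, Sev over control, with their standard errors. Markers of glioma and astroglial cells were present, with VIM at 5485 CPM, NES at 1465 CPM and GFAP at 269.9 CPM in control cells, while AQP4 was near 0 with at most 17 counts. Scaling by library size alone lowered the median log2 fold change of all features by 0.14.

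Under Sev the ryanodine receptors RYR3 and RYR2, the SERCA pump ATP2A2 and the entry channel ORAI1 rose, and the IP3 receptor ITPR1 fell. In these bulk libraries fewer cells with a transcript and less of it per cell cannot be told apart. ITPR2, ITPR3, ATP2A3, STIM1 and STIM2 did not pass the test. That is 4 members higher and 1 lower of 10, in a comparison where 22.1% of all tested features were called higher and 21.5% lower. Counting both directions, 7 of the 10 members had groups that did not overlap, against 56.5% of all features. The median log2 fold change of the members was 0.24, and that of all tested features was −0.0056. The study's own threshold asks for an unadjusted p under 0.05 and a log2 fold change above 1 in size. With it, RYR2 and RYR3 were higher and 0 members were lower by edgeR, against 11.4% and 12.0% of all features. By unadjusted p alone 1 member was lower, and DESeq2 with the study's threshold also gave 0. The number of members called higher was 1 without control 1 or without control 3 and 2 without Sev 1.

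**Figure D1:**
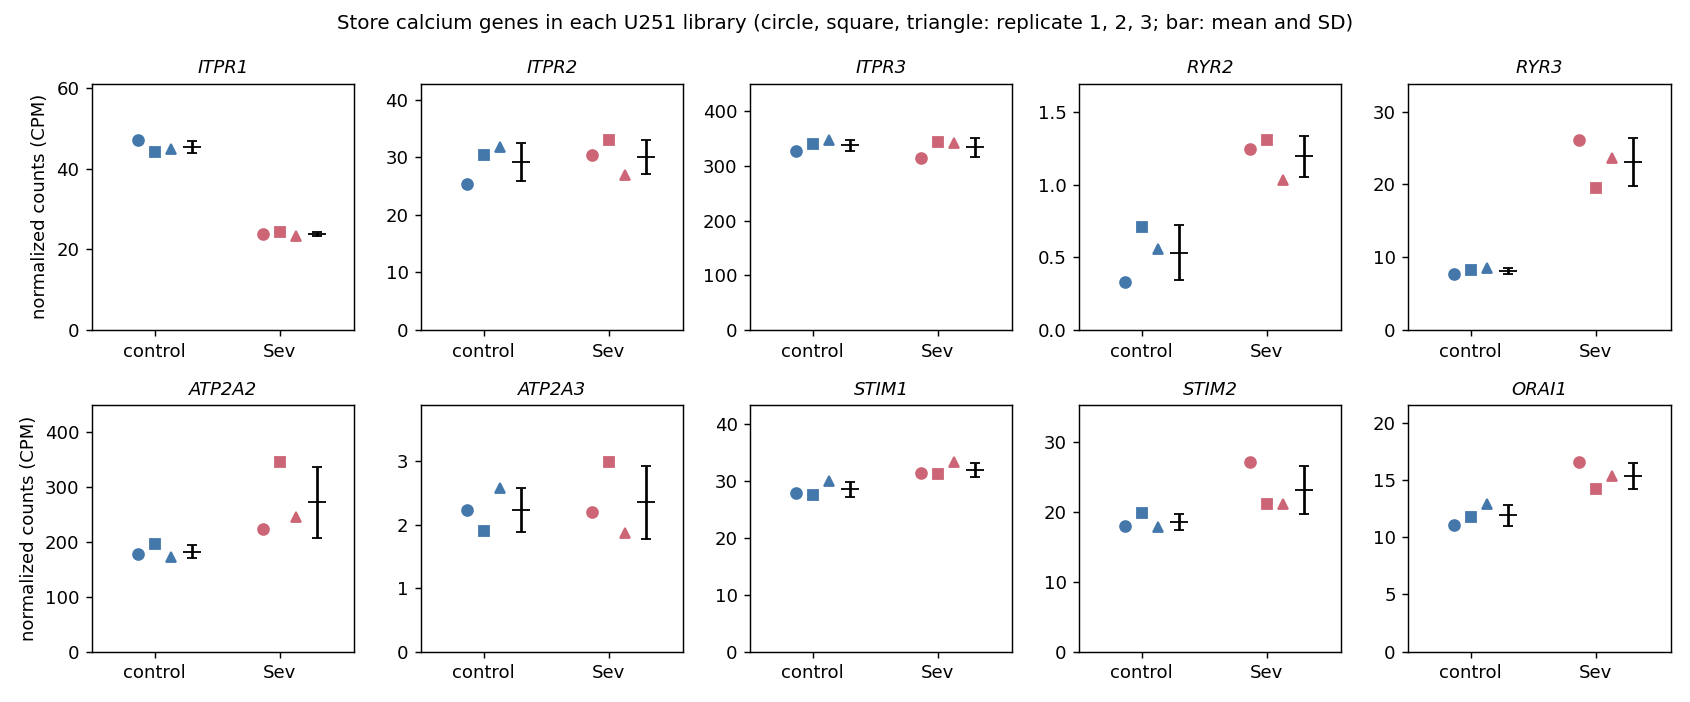
Normalized counts (CPM, linear axes from 0) of the 10 genes in each library, control in blue and Sev in red, with a symbol for each replicate number and bars for the mean and SD of 3 libraries. ITPR1 lies between 44.1 and 47.0 CPM in control and between 23.4 and 24.4 CPM in Sev, and RYR3 holds at most 8.49 CPM in control and at least 19.5 CPM in Sev.

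ITPR1, the IP3 receptor best known from cerebellar neurons, was the only member that fell. Its control libraries held 47.0, 44.1 and 45.0 CPM and its Sev libraries held 23.9, 24.4 and 23.4 CPM. The groups lay far apart, and each was narrow. The fall was from 45.4 ± 1.49 to 23.9 ± 0.503 CPM (SD, n = 3), to 0.526 of the control value. The log2 fold change was −0.93 with an SE of 0.0825 and a 95% interval of −1.12 to −0.736 (edgeR adjusted p = 0.000208). The call held in 15 of 15 alternative fits, with log2 fold changes from −1.07 to −0.49, the smallest in size on the scale of log2(FPKM + 1), which understates changes of low genes.

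ITPR2, the IP3 receptor that carries much of the IP3 signal of astrocytes, held 25.4, 30.4 and 31.8 CPM in control cells and 30.3, 32.9 and 27.0 CPM in Sev-treated cells. The groups overlapped, and the log2 fold change of 0.043 (SE 0.12, edgeR adjusted p = 0.802) changed sign with library size scaling and with the deposited FPKM. Its 95% interval, −0.24 to 0.326, left out a fall of the size seen for ITPR1.

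ITPR3, the third receptor of the family, was the most abundant of the 3 by FPKM and per kb of coding transcript. It held 326.7, 340.7 and 346.3 CPM in control cells and 314.5, 344.1 and 341.8 CPM in Sev-treated cells. The groups overlapped and differed by a log2 fold change of −0.019 (SE 0.0749, edgeR adjusted p = 0.856), with a 95% interval of −0.192 to 0.154. Of the 15 alternatives, the sign turned only without Sev 1, at 0.022.

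RYR3 encodes the ryanodine receptor first described in brain. Its control libraries held 7.71, 8.28 and 8.49 CPM, from 326 to 412 counts, and its Sev libraries held 26.0, 19.5 and 23.6 CPM, from 734 to 981 counts. The lowest Sev library was well above the highest control library. RYR3 rose from 8.16 ± 0.404 to 23.1 ± 3.29 CPM, by 2.83-fold, and had the largest log2 fold change of the 10 members at 1.50 (SE 0.137, 95% interval 1.18 to 1.81, edgeR adjusted p = 0.000228). The call held in 15 of 15 alternative fits, with log2 fold changes from 0.48 on log2(FPKM + 1) to 1.61.

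RYR2, the cardiac ryanodine receptor, was the lowest of the 10 genes by FPKM. It had 14, 28 and 27 counts in the control libraries and 47, 49 and 41 counts in the Sev libraries. All Sev libraries were above all control libraries, and control 1 was the lowest. The values were 0.531 ± 0.189 and 1.20 ± 0.142 CPM, a log2 fold change of 1.17 (SE 0.317, 95% interval 0.434 to 1.90, edgeR adjusted p = 0.0195). The call was lost without control 1 (adjusted p = 0.051), without control 3 (0.0565) and without Sev 1 (0.0593), and on log2(FPKM + 1) without a filter.

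RYR1, the skeletal muscle ryanodine receptor, was examined with the partners of these receptors and completes the family. It had 6, 11 and 8 counts in control cells and 103, 165 and 80 counts in Sev-treated cells, a log2 fold change of 3.96 (SE 0.407, edgeR adjusted p = 0.000355). RYR1 passed the filter on low counts only through the Sev libraries, where it is high. Of 6 muscle markers ACTA1 and TNNT2 were tested, also only through the Sev libraries, with 0.148 and 0.0315 CPM in control cells and 2.07 and 0.565 CPM in Sev-treated cells. MYH7 was at 0 in all libraries, and MYH2, DES and MYOG held at most 8 counts in any library. Their summed level was 0.278 to 0.402 CPM in control cells and 2.42 to 3.37 CPM in Sev-treated cells, and their part in the rise of the ryanodine receptors or of any other gene was not tested.

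ATP2A2 encodes SERCA2, the pump that fills the ER store in nearly all cells. Its control libraries held 179.0, 196.1 and 172.7 CPM and its Sev libraries held 224.4, 345.6 and 246.4 CPM. The groups did not overlap, and Sev 2 stood above the other Sev libraries. The group values were 182.6 ± 12.1 and 272.1 ± 64.5 CPM, and ATP2A2 rose by a log2 fold change of 0.58 (SE 0.157, 95% interval 0.213 to 0.938, edgeR adjusted p = 0.0197). Without Sev 2 the log2 fold change was 0.37 and the call remained (adjusted p = 0.0183). Without control 1 (adjusted p = 0.0658) or control 3 (0.0719), and on the deposited FPKM with limma (0.0545 to 0.104 over 3 fits), the call was lost.

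ATP2A3, the SERCA gene known from blood cells and epithelia, was low, with 75 to 125 counts in control cells and 74 to 112 counts in Sev-treated cells. The values were 2.23 ± 0.341 and 2.35 ± 0.571 CPM, and the groups overlapped. The log2 fold change of 0.073 (SE 0.234, edgeR adjusted p = 0.823) changed sign with library size scaling, and its 95% interval of −0.468 to 0.614 was wide.

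STIM1, the main sensor of ER calcium, held 28.0, 27.5 and 30.1 CPM in control cells and 31.4, 31.2 and 33.3 CPM in Sev-treated cells. The groups did not overlap, but the log2 fold change of 0.16 (SE 0.088, 95% interval −0.04 to 0.367, edgeR adjusted p = 0.169) did not pass the test and was 0.023 with library size scaling.

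STIM2, a sensor that responds to smaller losses of ER calcium, held 17.9, 19.8 and 17.8 CPM in control cells and 27.1, 21.1 and 21.2 CPM in Sev-treated cells. Again the groups did not overlap, and Sev 1 was the highest. The log2 fold change was 0.32 (SE 0.129, 95% interval 0.022 to 0.617), with an unadjusted p of 0.0383 and an edgeR adjusted p of 0.0777. The log2 fold change was 0.19 without Sev 1, 0.18 with library size scaling and 0.11 on log2(FPKM + 1). It was called in 0 of 15 alternative fits, with adjusted p from 0.0639 to 0.452.

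ORAI1 forms the pore of the classical store-operated channel. It held 11.1, 11.8 and 12.9 CPM in control cells and 16.6, 14.3 and 15.3 CPM in Sev-treated cells, and the lowest Sev library was above the highest control library. ORAI1 rose by a log2 fold change of 0.37 (SE 0.12, 95% interval 0.091 to 0.646, edgeR adjusted p = 0.0389). This was the least stable of the 5 calls. It held in 4 of 15 alternative fits and was lost with library size scaling (log2 fold change 0.23, adjusted p = 0.183), with the replicate number as a block (0.0864), without an expression filter (0.0722), on FPKM and when any 1 library other than Sev 2 was left out (0.0591 to 0.132). Over all alternatives the adjusted p ran from 0.0342 to 0.183.

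**Figure D2:**
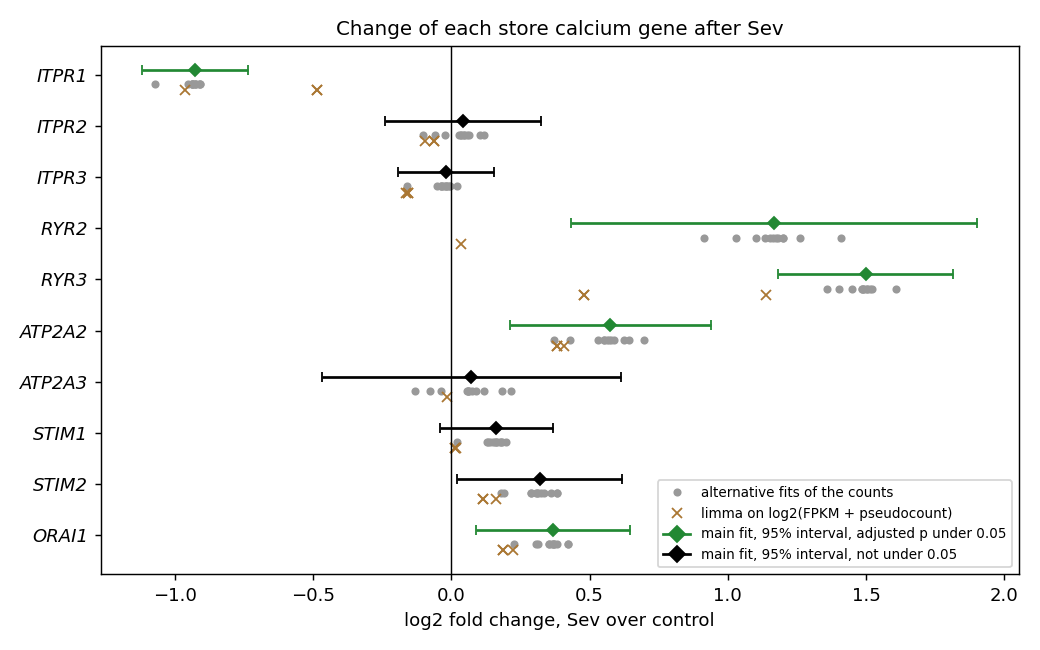
Log2 fold change, Sev over control, of the 10 genes in the main edgeR fit (diamonds with 95% intervals, green where the adjusted p is under 0.05), with the alternative fits of the counts as grey points and limma on log2(FPKM + pseudocount) as crosses. ITPR1 is left of 0 and RYR3 right of 0 in each fit, while the points of ITPR2 and ATP2A3 lie on both sides of 0.

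Levels of different genes can be compared only per length. In the deposited FPKM, ITPR3 led in control cells with 29.2 ± 0.534, ahead of ATP2A2 with 11.3 ± 0.637, ORAI1 with 4.46 ± 0.306 and STIM1 with 3.39 ± 0.179. STIM2 at 1.87 ± 0.0824 and ITPR2 at 1.78 ± 0.18 overlapped and are not ordered. ITPR1 followed at 1.18 ± 0.0634, RYR3 at 0.337 ± 0.0116, ATP2A3 at 0.266 ± 0.0429 and RYR2 at 0.0249 ± 0.00877, each apart from its neighbor in all libraries. In Sev-treated cells the FPKM of RYR3, 0.867 ± 0.143, was above that of ITPR1, 0.559 ± 0.00681, in all 3 libraries.

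This order depends on the length used. The deposited FPKM of ITPR1 imply a length of 40.1 to 40.8 kb, closer to the sum of all its annotated exons (32454 bases) than to its longest coding transcript (10197 bases). For ATP2A2 the implied length was 16.9 to 17.0 kb and the longest coding transcript has 4453 bases. Per kb of the longest coding transcript, a scale added after the data were seen, ATP2A2 led in control cells with 41.0 ± 2.72 CPM per kb, ahead of ITPR3 with 34.2 ± 1.03. ITPR1 ranked 5, with 4.45 ± 0.147 CPM per kb, above STIM2 and ITPR2, and RYR3 overlapped ATP2A3. In Sev-treated cells ITPR1, at 2.34 ± 0.0493 CPM per kb, overlapped ITPR2 and remained above RYR3 on this scale, the reverse of the order by FPKM. The lead of ITPR3 and ATP2A2 over the other 8 genes was found on both scales.

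**Figure D3:**
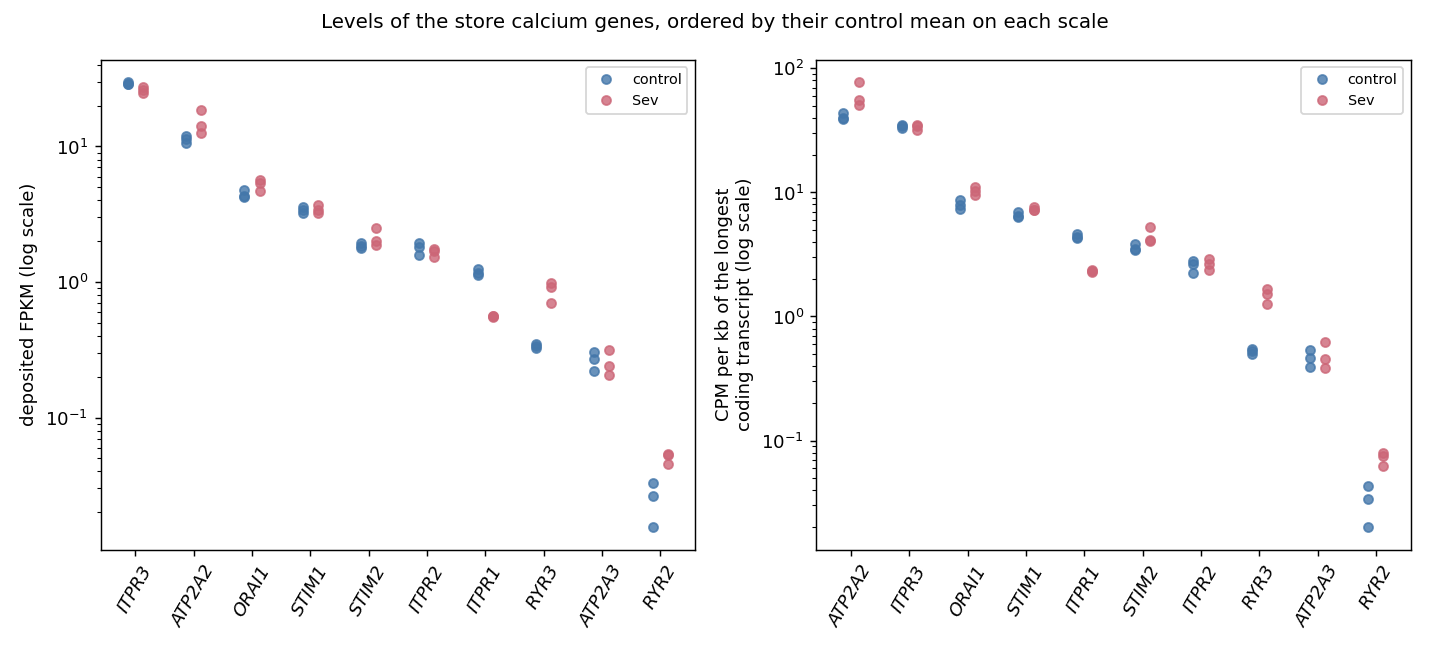
Levels of the 10 genes in each library on log axes, as deposited FPKM (left) and as CPM per kb of the longest coding transcript (right), ordered by the control mean, control in blue and Sev in red. ITPR3 and ATP2A2 stand at the top of both panels and RYR2 at the bottom, while ITPR1 ranks 7 by FPKM and 5 per kb of coding transcript in control cells.

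Within the IP3 receptor, ryanodine receptor and SERCA families, 1 gene held most of the FPKM. ITPR3 made up 90.8% ± 0.244 of the IP3 receptor FPKM in control cells and 92.1% ± 0.681 in Sev-treated cells, while the share of ITPR1 was 3.68% ± 0.234 and 1.97% ± 0.0937. Per kb of coding transcript the ITPR1 share was 10.8% ± 0.649 and 6.05% ± 0.273, so its groups did not overlap on either scale. RYR3 made up 90.8% ± 2.81 of the ryanodine receptor FPKM in control cells and 81.2% ± 6.97 in Sev-treated cells, with RYR1 at 2.58% ± 0.845 and 14.0% ± 6.27. The sum of the 3 ryanodine receptors was 0.371 ± 0.0198 FPKM in control cells and 1.06 ± 0.0997 FPKM in Sev-treated cells, against 32.2 ± 0.661 and 28.4 ± 1.44 FPKM for the 3 IP3 receptors. The FPKM hold no TMM scaling. In CPM per kb of coding transcript, the IP3 receptor sums overlapped, at 41.2 ± 1.2 in control and 38.7 ± 1.7 in Sev-treated cells. The ryanodine receptor sums on that scale were 0.567 ± 0.0385 and 1.75 ± 0.157, without overlap. The SERCA sum was 12.5 ± 0.555 and 17.4 ± 2.91 FPKM, of which ATP2A2 held 90.5% ± 2.13 and 86.8% ± 3.38.

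ORAI1 was not the leading ORAI gene by FPKM. ORAI2 held 44.8% ± 2.65 of the ORAI FPKM in control cells and 54.2% ± 5.87 in Sev-treated cells, against 29.6% ± 4.02 and 34.1% ± 0.8 for ORAI1. ORAI3 held 25.6% ± 6.67 and 11.8% ± 6.23, with overlapping CPM between groups (log2 fold change −0.94, SE 0.414, edgeR adjusted p = 0.103). It passed the test with the replicate number as a block (adjusted p = 0.00984), with DESeq2 (0.0415) and without Sev 1 (0.00945), where the log2 fold change was −1.56. It did not pass in the other 12 alternatives (adjusted p 0.059 to 0.305), the highest without control 1, at a log2 fold change of −0.63. Per kb of coding transcript ORAI1 and ORAI2 had like shares in control cells, 36.9% ± 4.75 and 37.9% ± 1.99. ORAI2 and ORAI3 were named here after their values were seen.

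A ratio of related genes within a library does not depend on library scaling. The log2 ratio of ITPR1 to ITPR3 was −4.53, −4.68 and −4.68 in control cells and −5.46, −5.56 and −5.61 in Sev-treated cells, and that of ITPR1 to ITPR2 was −0.34, −0.69 and −0.73 against −1.59, −1.67 and −1.45. Neither pair of groups overlapped, with differences of −0.92 and −0.98. The ratio of ORAI1 to STIM1 did not overlap either, 0.31, 0.44 and 0.43 against 0.74, 0.53 and 0.53, a difference of 0.21. The groups overlapped for ITPR2 to ITPR3 (difference 0.064), ATP2A3 to ATP2A2 (−0.49), STIM2 to STIM1 (0.15) and RYR2 to RYR3 (−0.27). The smallest p that the two-sided exact permutation test allows here is 0.1, and the 3 ratios without overlap reached it, with Benjamini-Hochberg adjusted p = 0.2333 over the 7 ratios. The other 4 ratios had p from 0.2 to 0.7 in this exact permutation test.

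**Figure D4:**
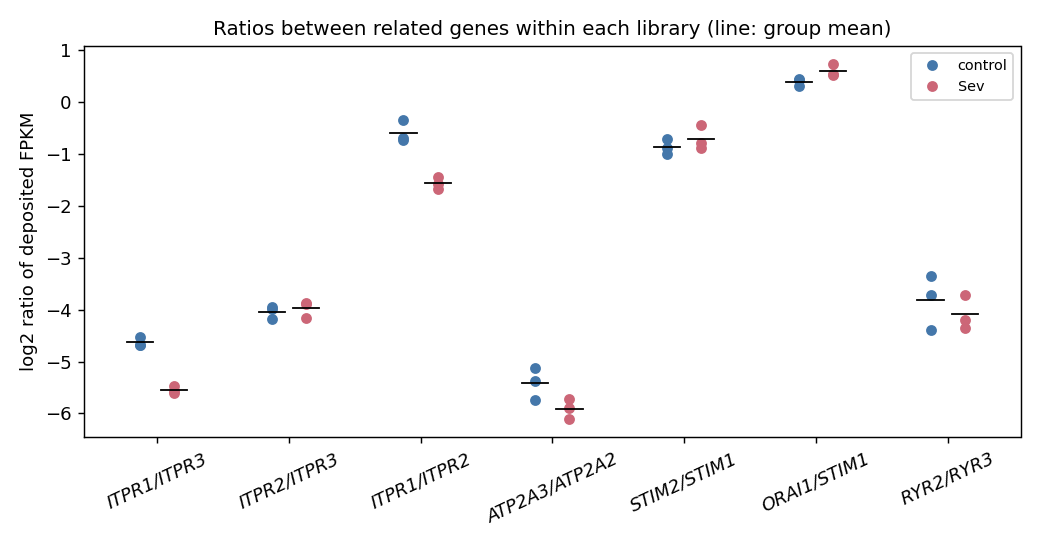
Log2 ratio of deposited FPKM of related genes in each library, control in blue and Sev in red, with a line for the group mean. The groups of ITPR1/ITPR3, ITPR1/ITPR2 and ORAI1/STIM1 do not overlap, and those of the other 4 ratios do.

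Around the members, 151 other genes of store calcium in 9 lists were examined, of which 150 were found in the tables and 140 were tested. Of these, 46 (32.9%) were higher and 17 (12.1%) lower, with a median log2 fold change of 0.11. With library size scaling the split was 36 higher (25.7%) and 30 lower (21.4%), against 17.0% and 27.3% of all features under that scaling. Of all tested features 22.1% were higher and 21.5% lower. Among all tested protein-coding genes 25% were higher and 21% lower, with a median of 0.038. With the study's threshold 15 were higher (10.7%) and 1 was lower (0.714%), against 11.4% and 12.0% of all features. By adjusted p, the number called lower was 11 without Sev 1. Of the 140 genes, 8 passed the filter only through the Sev libraries, and 7 of these were called higher, so they are no support for a direction. Of the 130 genes over the filter level in all 6 libraries, 39 were higher and 17 lower, against 21.5% and 22.1% of the features that met this condition.

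**Figure D5:**
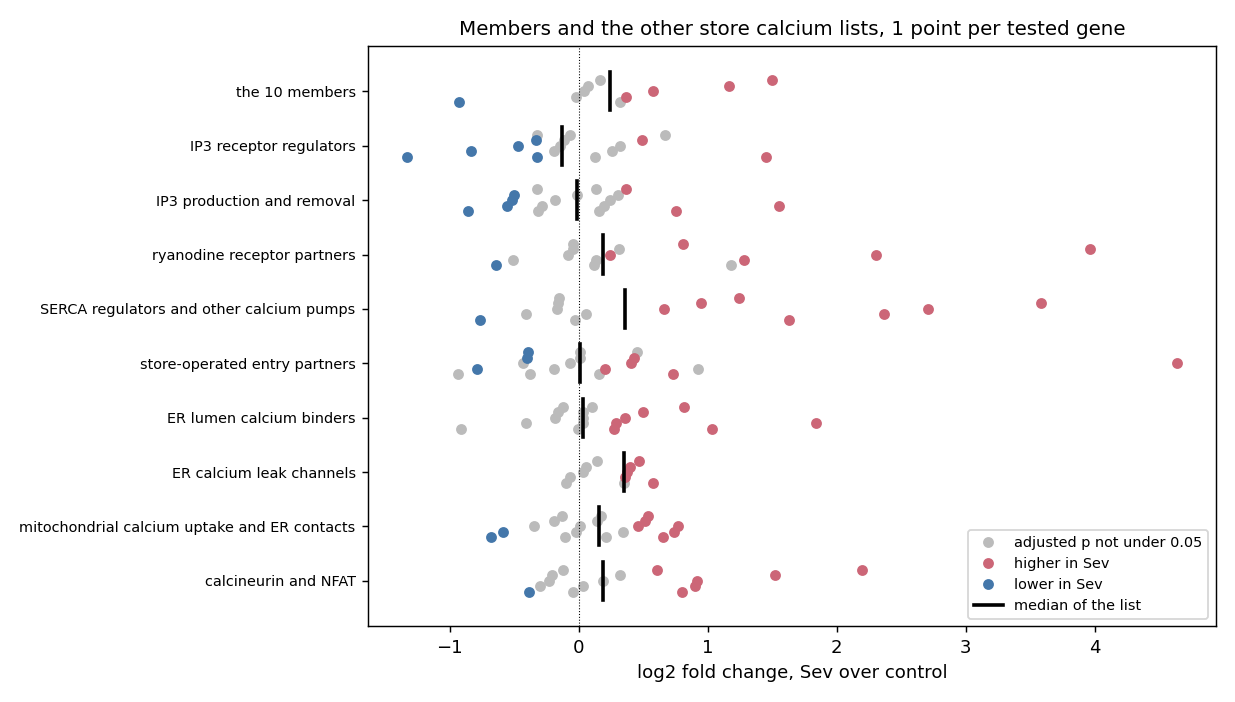
Log2 fold change, Sev over control, of each tested gene in the 10 members and the 9 other lists, red where called higher, blue where called lower and grey otherwise, with a black line for the median of the list. The medians lie between −0.128 for the IP3 receptor regulators and 0.36 for the SERCA regulators and other pumps, and the points furthest right belong to genes with few counts in control cells such as TRPC7, RYR1 and MRLN.

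Of 16 tested regulators of IP3 receptors, 5 were lower (31.2%) and 2 higher (12.5%), against 21.5% and 22.1% of all features. Their median was −0.13. With library size scaling 8 were lower and 1 higher, against 27.3% and 17.0% of all features. RNF170, a ubiquitin ligase that helps to degrade activated IP3 receptors, held 13.7, 12.5 and 13.7 CPM in control cells and 5.38, 4.36 and 6.07 CPM in Sev-treated cells, and fell by 1.33 on the log2 scale (SE 0.155, edgeR adjusted p = 0.000564). HOMER2, a scaffold that binds IP3 receptors, fell by 0.83 (SE 0.138, adjusted p = 0.00246) and TMBIM6, an ER membrane protein of the Bax inhibitor family, rose by 0.49 (SE 0.146, adjusted p = 0.0274). The TMBIM6 call was lost with library size scaling (adjusted p = 0.0947) and without control 1 or any 1 Sev library (0.0508 to 0.0646), and on FPKM (0.0912 to 0.164 over 3 fits). Without control 2 its log2 fold change was 0.33 and the call remained (adjusted p = 0.029). ERLIN2, which recruits RNF170 to IP3 receptors and was named after its value was seen, fell by 0.33 (SE 0.0798, adjusted p = 0.0118), a call lost without Sev 1 (0.0542). The other gene called higher, ITPRIP, named after its value was seen, had groups that overlapped (adjusted p = 0.036) and lost its call with the replicate number as a block (0.0837) and without control 1, control 3, Sev 1 or Sev 3 (0.101 to 0.112). It was also lost with DESeq2 (adjusted p = 0.0524), without an expression filter (0.0608) and on FPKM (0.0655 to 0.133 over 3 fits).

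Among the 17 tested genes that make or remove IP3, 3 were higher (17.6%) and 4 lower (23.5%), against 22.1% and 21.5% of all features. Their median was −0.016. Of the 16 genes over the filter level in all 6 libraries, 2 were higher and 4 lower. With library size scaling 2 were higher and 6 lower, against 17.0% and 27.3% of all features. The phospholipase C gene PLCB4 fell by 0.86 on the log2 scale (SE 0.188, edgeR adjusted p = 0.00813), from 8.33 ± 1.56 to 4.60 ± 0.66 CPM. PLCB2, which passed the filter only through the Sev libraries, had 5, 8 and 6 counts in control cells and 11, 22 and 17 in Sev-treated cells (adjusted p = 0.0228). ITPKA, a kinase that phosphorylates IP3, rose by 0.76 (SE 0.233, adjusted p = 0.0317). The PLCB2 call was lost with DESeq2 (adjusted p = 0.0862), without control 1, control 3, Sev 2 or Sev 3 (0.056 to 0.0894) and on log2(FPKM + 1) without a filter (0.136). The ITPKA call was lost with library size scaling (adjusted p = 0.057), without an expression filter (0.0571), without any 1 library other than control 2 (0.0572 to 0.074) and in 2 of 3 FPKM fits (0.0559 and 0.0871).

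The partners of ryanodine receptors gave 5 higher (35.7%) and 1 lower (7.14%) of 14 tested, against 22.1% and 21.5% of all features. Their median was 0.19. The 5 include RYR1, which passed the filter only through the Sev libraries. Of the 13 genes over the filter level in all 6 libraries, 4 were higher and 1 lower. With library size scaling 4 were higher and 1 lower, against 17.0% and 27.3% of all features. Besides RYR1, JPH3, a junctophilin of neurons that ties the ER to the plasma membrane, rose from 2.54 ± 0.565 to 12.6 ± 0.808 CPM (log2 fold change 2.31, SE 0.186, edgeR adjusted p = 0.000152). JSRP1, a junctional protein of skeletal muscle, rose, with 24 to 34 counts in control cells and 45 to 70 in Sev-treated cells (log2 fold change 1.28, SE 0.256, adjusted p = 0.00548).

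Of 14 tested SERCA regulators and other calcium pumps or exchangers, 7 were higher (50%) and 1 lower (7.14%), against 22.1% and 21.5% of all features. Their median was 0.36. With library size scaling 7 were higher and 3 lower, against 17.0% and 27.3% of all features. MRLN, SLC8A2 and ATP2B3, all called higher, passed the filter only through the Sev libraries, and of the 11 genes over its level in all 6 libraries 4 were higher and 1 lower. MRLN, a small inhibitor of SERCA in skeletal muscle, had 0, 0 and 9 counts in control cells and 44, 28 and 24 counts in Sev-treated cells (edgeR adjusted p = 0.0126). ATP2B2, a plasma membrane calcium pump, rose, with 26 to 57 counts in control cells and 111 to 347 in Sev-treated cells (log2 fold change 2.71, SE 0.467, adjusted p = 0.00292). SLC8A2, a sodium and calcium exchanger, rose, with 6 to 18 counts in control cells and 37 to 65 in Sev-treated cells (log2 fold change 2.37, SE 0.395, adjusted p = 0.00254). Named after their values were seen, ATP2A1, the skeletal muscle SERCA, rose by 1.24 (SE 0.201, adjusted p = 0.00219) and PLN, the SERCA inhibitor phospholamban, by 0.95 (SE 0.142, adjusted p = 0.00161). ATP2B4, another plasma membrane pump named in the same way, fell by 0.77 (SE 0.18, adjusted p = 0.0108). The plasma membrane pumps ATP2B1 (log2 fold change 0.66, adjusted p = 0.00639) and ATP2B3 (1.63, adjusted p = 0.00778) were called higher. Both were named after their values were seen, and ATP2B3 passed the filter only through the Sev libraries. The ATP2B3 call was lost on log2(FPKM + 1) without a filter (adjusted p = 0.054).

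Partners of store-operated entry gave 5 higher (27.8%) and 3 lower (16.7%) of 18 tested, against 22.1% and 21.5% of all features. Their median was 0.0090. Of the 15 genes over the filter level in all 6 libraries, 4 were higher and 3 lower. With library size scaling 3 were higher and 3 lower, against 17.0% and 27.3% of all features. TRPC7, a cation channel gated by diacylglycerol, had 1, 11 and 4 counts in control cells and 108, 113 and 143 counts in Sev-treated cells (edgeR adjusted p = 0.000504), and passed the filter only through the latter. SLC35G1, a membrane partner of STIM1, fell by 0.79 on the log2 scale (SE 0.109, adjusted p = 0.00111). ESYT2, a tether between the ER and the plasma membrane, rose by 0.73 (SE 0.108, adjusted p = 0.00152). ORAI2 rose by 0.43 (SE 0.0841, adjusted p = 0.00496), from 88.7 ± 3.76 to 119.5 ± 8.90 CPM, a call lost on FPKM (0.0558 to 0.0847 over 3 fits).

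Of 17 tested calcium binders of the ER lumen, 7 were higher (41.2%) and 0 lower in the edgeR test, with a median of 0.035. Of all tested features 22.1% were higher and 21.5% lower in that test. The count lower was also 0 by unadjusted p and by DESeq2. Library size scaling gave 5 higher and 2 lower, against 17.0% and 27.3% of all features. HSPA5, the ER chaperone BiP, held 406.4, 446.3 and 430.4 CPM in control cells and 740.9, 727.0 and 792.5 CPM in Sev-treated cells, and rose by 0.82 on the log2 scale (SE 0.0799, adjusted p = 0.000298). CASQ1 and CASQ2, the calsequestrins of skeletal and cardiac muscle, rose by 1.84 (SE 0.22, adjusted p = 0.000628) and 1.03 (SE 0.28, adjusted p = 0.0195), from 39 to 71 and 20 to 23 counts in control cells. The CASQ2 call was lost with DESeq2 (adjusted p = 0.0568), without control 3 (0.0749), without Sev 2 (0.0565) and on log2(FPKM + 1) without a filter (0.0613). CALR, the calcium-binding chaperone calreticulin, was named after its value was seen and had a log2 fold change of 0.032 (SE 0.109, adjusted p = 0.832), which turned to −0.11 with library size scaling.

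All 11 genes of the ER leak list were tested, and 5 were higher (45.5%) and 0 lower in the edgeR test, against 22.1% and 21.5% of all features, with a median of 0.35. The count lower was 0 by unadjusted p and by DESeq2. Library size scaling gave 3 higher and 1 lower, against 17.0% and 27.3% of all features. SEC61A1, the pore of the ER translocon, rose by 0.58 on the log2 scale (SE 0.129, adjusted p = 0.00876), PANX1, a pannexin channel, by 0.47 (SE 0.105, adjusted p = 0.00894) and SEC61B, a translocon subunit, by 0.39 (SE 0.118, adjusted p = 0.0286). The SEC61B call was lost with library size scaling (log2 fold change 0.26, adjusted p = 0.121), with the replicate number as a block (0.0639), without an expression filter (0.0592), without control 1, control 3, Sev 1 or Sev 3 (0.0778 to 0.0904) and on FPKM (0.0831 to 0.134 over 3 fits).

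Of 18 genes of mitochondrial calcium uptake and ER contacts, 6 were higher (33.3%) and 2 lower (11.1%), with a median of 0.16. Of all tested features 22.1% were higher and 21.5% lower. With library size scaling 6 were higher and 3 lower, against 17.0% and 27.3% of all features. PDZD8, an ER protein at contacts with mitochondria, rose by 0.77 on the log2 scale (SE 0.085, edgeR adjusted p = 0.00046) and HSPA9, the mitochondrial chaperone mortalin, by 0.74 (SE 0.117, adjusted p = 0.00208). MICU3, a regulator of the mitochondrial uniporter, fell by 0.68 (SE 0.165, adjusted p = 0.0122). The uniporter pore MCU, named after its value was seen, had a log2 fold change of 0.21 (SE 0.13, adjusted p = 0.223), which was 0.11 without control 3, 0.12 without Sev 2 and 0.067 with library size scaling.

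Calcineurin is the phosphatase that store-operated calcium activates, and NFAT factors are its targets. Of 15 tested genes of this list, 6 were higher (40%) and 1 lower (6.67%), against 22.1% and 21.5% of all features. Their median was 0.19. With library size scaling 5 were higher and 3 lower, against 17.0% and 27.3% of all features. NFATC2 held 8.24, 8.22 and 8.11 CPM in control cells and 24.4, 27.0 and 19.3 CPM in Sev-treated cells, a log2 fold change of 1.52 (SE 0.143, edgeR adjusted p = 0.000256). PPP3CC, a catalytic subunit of calcineurin, rose by 0.92 (SE 0.119, adjusted p = 0.00088), and PPP3R2, a regulatory subunit, rose, with 4 to 5 counts in control cells and 13 to 31 in Sev-treated cells (adjusted p = 0.00812), a call lost on log2(FPKM + 1) without a filter (0.0855). PPP3R2 passed the filter on low counts only through the Sev libraries. Of the 14 genes over the filter level in all 6 libraries, 5 were higher and 1 lower. RCAN1, a calcineurin inhibitor and known NFAT target that was named after its value was seen, had a log2 fold change of −0.30 (SE 0.146, adjusted p = 0.13).

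Reads could be shared between a member and a gene that lies over it, since the strand setting of the counting was not stated. ATP2A2, ATP2A3 and ORAI1 had no overlapping gene in GENCODE 29. AC010809.1, antisense to RYR3, rose by a log2 fold change of 1.13 (SE 0.239, edgeR adjusted p = 0.00694) from 0.925 to 2.03 CPM, with 36 to 100 counts against 326 to 981 counts for RYR3. HNRNPA1P76, a processed pseudogene on the opposite strand of STIM1, fell by 1.88 (SE 0.363, adjusted p = 0.00468) with 5 to 39 counts. UQCC2, named after its value was seen, overlaps ITPR3 on the opposite strand and held 50.7 and 37.7 CPM (adjusted p = 0.225). The other tested overlapping genes did not pass the test, and AC010809.2, also antisense to RYR3 and named after its value was seen, had an adjusted p of 0.0619.

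Markers of other cell types also moved with Sev, and their part in these results was not tested. The summed CPM of 6 neuron markers was 104.8 to 132.3 in control cells and 158.5 to 172.0 in Sev-treated cells, with TUBB3 and SYT1 higher, GAD1 lower and 3 that did not pass the test. Of 6 immune markers CD3E and AIF1 were at 0 in all libraries, CSF1R was higher, and the sum was 6.11 to 8.42 and 10.0 to 13.3 CPM. The sums were 40.0 to 42.5 and 52.9 to 66.5 CPM for 5 endothelial markers, with PECAM1, KDR and CLDN5 higher and CDH5 and VWF at log2 fold changes of −0.077 and 0.039 (adjusted p = 0.747 and 0.923). They were 27.8 to 29.0 and 31.9 to 39.1 CPM for 4 epithelial markers, with KRT18 higher, KRT8 at −0.11 (adjusted p = 0.701) and EPCAM and CDH1 at most at 8 counts. KDR and KRT18 held most of these 2 sums. For the 10 glioma and astroglial markers they were 7954 to 8887 and 8999 to 9517 CPM, with CD44 higher, S100B and SOX2 lower and AQP4 not tested.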

How the data were processed

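Total RNA of U251 cells was sequenced from strand-specific libraries, 3 of control and 3 of Sev-treated cells, grouped by their titles. The authors deposited read counts per gene, without normalization, and FPKM values of the same features. The FPKM deposited by the authors were checked against the counts: over 13668 features the length they imply varied between libraries with a median coefficient of variation of 0.328%. The submitters' processing notes name bcl2fastq 2.19, featureCounts and the build hg18, without roles. The aligner, the annotation and the strand setting are not given in the sources used here. The tables hold no coordinates. Symbols matched 60295 of 60564 Ensembl identifiers, and 58457 were in GENCODE 29 (GRCh38), from which positions were taken. The other 932 features are MSTRG loci, and 1 list gene, ARLN, was not matched.

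The tests used edgeR 4.0.16 under R 4.3.3 (filterByExpr, TMM, glmQLFit, glmQLFTest, the groups only, no covariate). Standard errors are the size of the log2 fold change over the root of the F statistic, and intervals use the t distribution with the fit's 7.88 degrees of freedom. CPM hold no prior count. Ratios of FPKM were tested by the exact permutation test in Python 3.11.15 with scipy 1.17.1. Alternatives were DESeq2 1.42.0 size factors and Wald test, library size only, no filter, at least 10 counts in each library, a block for the replicate number, fits that leave out 1 library, and limma 3.58.1 on log2(FPKM + 1) or log2(FPKM + 0.1), with at least 0.5 FPKM in 3 libraries or, for the first, no filter. The edgeR fit was tested on simulated counts, and the permutation test on small made-up sets of values.

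The members and lists were chosen with earlier results of these data known. Named besides the members were the 3 genes of each list with the largest log2 fold change in size among those called with groups that did not overlap, and called genes overlapping a member. Other list genes are marked as named after their values were seen. The labels do not say whether the 3 libraries of a group came from separate cultures, and the study speaks of independent experiments for its quantitative data in general, without naming the sequencing. P-values then measure only the spread between libraries, which may be technical. Of 13668 abundant genes, 50.5% to 68% differed by more than sampling noise between libraries of a group, and no library was counted as a second copy.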

Additional observations from a re-analysis of the deposited data

How the results depend on the processing

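The number of members called higher, 4, was 1 with limma on log2(FPKM + 1), on log2(FPKM + 0.1) and on log2(FPKM + 1) without a filter, 2 with the study's threshold and 1 to 4 when 1 library was left out. The number called lower, 1, was 0 with the study's threshold and 1 otherwise. Of the list genes, 46 were called higher, against 26, 25 and 28 in the 3 FPKM fits and 15 with the study's threshold. Called lower were 17, against 30 with library size only, 28 and 29 in the filtered FPKM fits, 1 with the study's threshold and 11 to 19 when 1 library was left out. The cause of these differences was not tested.

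Signs changed for genes that did not pass the test. ITPR2 (main log2 fold change 0.043) was at −0.10 with library size only, at −0.064, −0.094 and −0.064 in the FPKM fits, and between −0.058 and 0.12 when 1 library was left out. ATP2A3 (0.073) was at −0.077 with library size only, at −0.016 on FPKM without a filter, and between −0.13 and 0.22 when 1 library was left out. ITPR3 (−0.019) was between −0.052 and 0.022 when 1 library was left out. CALR (0.032) was at −0.11 with library size only, at −0.12, −0.12 and −0.12 in the FPKM fits, and between −0.044 and 0.12 when 1 library was left out.

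With the replicate block, 3 members were higher and 1 lower, and 42 list genes were higher and 13 lower. Residuals of libraries with the same number correlated at −0.103, −0.005 and 0.096, so the numbers were not taken to pair the libraries. The 7 ratios were counted as unchanged in 49 of 49 comparisons with alternatives, in a design that cannot pass the test. This count does not mean that each direction was kept. Without control 1, the log2 ratio of ITPR2 to ITPR3 was −3.99 and −3.944 in control cells, with a Sev mean of −3.977. The sign of its main difference, 0.064, was then not kept. Depth limited RYR2, with 14 to 49 counts, more than the other members.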
